A study of Mus musculus with 23 samples.

Results

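Gene expression was compared between epiblasts homozygous for a Tet1 gene trap (Tet1gt/gt) and wild-type epiblasts of mouse embryos at stage E6.25, over all genes of the count table. The comparison takes 8 of the 23 libraries of the series, namely wild-type (wt) pools 1, 2, 4 and 5 and homozygous pools 1, 2, 3 and 4, chosen by genotype and tissue as the labels give them. The other libraries are 4 heterozygous epiblast pools (Tet1gt/wt), which entered the same fit, and 11 pools of extra-embryonic tissue (ExE) of the 3 genotypes. Each library was made from lysates of at least 6 embryos from 2 to 3 litters, combined after the embryos had been genotyped, so that a value averages several embryos and the spread between pools is not the spread between embryos. The labels name no treatment and no tissue-specific driver. The position of the trap in Tet1 and the mouse strain were not given in the sources used here, and no second trap line was compared. The question the design poses is what the loss of TET1 changes in the epiblast shortly after implantation.

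The epiblast is the cup of pluripotent cells that forms the embryo proper. At this stage it is about to start gastrulation, when NODAL, WNT and BMP signals induce the primitive streak at its posterior side. TET1 is a dioxygenase that oxidises 5-methylcytosine at CpG dinucleotides, the first step of active DNA demethylation, and its CXXC domain binds CpG-rich DNA. Independently of catalysis it is also found with the SIN3A co-repressor and at promoters held by Polycomb repressive complexes. TET1 is the main TET enzyme of pluripotent cells, while TET2 and TET3 are used more in other tissues or stages.

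Since TET1 acts on CpG dinucleotides, the promoters of 4 genes on which the comparison turns are shown with every CpG in capitals. They were chosen to show low, middle and high CpG density. Sirpa and Lefty2 had no entry in the promoter table, and the promoter of Bin1 is not shown. Each is the 250 bases before the RefSeq transcription start on GRCm38.p6, written 5′ to 3′ on the gene's strand. DNA methylation and TET1 binding at these sequences were not measured here.
Barx1 (chr13:48662786-48663035, plus strand): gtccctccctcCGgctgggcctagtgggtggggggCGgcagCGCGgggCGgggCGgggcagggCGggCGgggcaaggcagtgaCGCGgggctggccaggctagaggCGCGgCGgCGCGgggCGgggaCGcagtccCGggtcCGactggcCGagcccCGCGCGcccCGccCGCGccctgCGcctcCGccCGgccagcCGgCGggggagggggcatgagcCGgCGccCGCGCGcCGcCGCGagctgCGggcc
Twist1 (chr12:33957421-33957670, plus strand): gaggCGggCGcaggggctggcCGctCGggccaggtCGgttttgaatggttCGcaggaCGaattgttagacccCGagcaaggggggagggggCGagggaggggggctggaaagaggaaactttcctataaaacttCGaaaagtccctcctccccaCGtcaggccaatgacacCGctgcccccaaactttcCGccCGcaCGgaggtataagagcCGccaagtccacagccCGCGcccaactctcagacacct
Cd44 (chr2:102901666-102901915, minus strand): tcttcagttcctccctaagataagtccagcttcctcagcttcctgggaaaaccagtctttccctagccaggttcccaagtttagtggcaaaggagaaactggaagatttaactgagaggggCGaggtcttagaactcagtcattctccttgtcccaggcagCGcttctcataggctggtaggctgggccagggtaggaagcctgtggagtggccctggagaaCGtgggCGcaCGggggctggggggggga
Nnat (chr2:157559828-157560077, plus strand): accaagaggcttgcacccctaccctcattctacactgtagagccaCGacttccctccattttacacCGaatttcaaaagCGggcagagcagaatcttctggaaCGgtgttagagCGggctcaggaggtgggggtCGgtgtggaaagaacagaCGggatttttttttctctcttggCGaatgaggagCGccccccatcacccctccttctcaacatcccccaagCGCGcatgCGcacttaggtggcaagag

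The Barx1 window holds 40 CpG, more than 97.4% of the 9663 tested genes with a promoter in the table, and the Twist1 window holds 18 CpG, more than 54.4% of them. The Nnat window holds 12 CpG (more than 29.7%) and the Cd44 window 5 (more than 8.12%). The median was 16 CpG per promoter among all 9663 genes, among 211 genes with all homozygous pools above all wt pools and among 201 genes with all of them below.

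Total counts were 6899786 to 9021097 per wt pool, 5764399 to 9452811 per heterozygous pool and 5810296 to 9427522 per homozygous pool. Levels are given as CPM (counts scaled to a common library size) after TMM scaling, and 3 counts, the limit that a count of 0 allows, stand for 0.317 to 0.525 CPM in these libraries. Homozygous pool 3 stood apart in that its short and GC-rich transcripts read high: its log2 level increased by 0.738 per 10% of GC content and changed by -0.188 per doubling of transcript length. Heterozygous pool 4 had slopes of 0.679 and -0.228, against -0.367 to 0.0291 and -0.00432 to 0.0771 in the other 10 epiblast libraries. The chi-square divided by its degrees of freedom was 86.2 to 89.9 for pairs of homozygous pools that include pool 3, against 14.3 to 16.5 for pairs of those without it and 12.3 to 20.8 for wt pairs. For some lists the counts of higher and lower members are also given without it. Other list counts include it, and some of these also shift when it is left out.

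Tet1 transcript (chromosome 10, 62804570 to 62908996, minus strand, GRCm38) was below the wt range in all 4 homozygous pools. It stood at 128, 177, 191 and 198 CPM in wt pools 1, 2, 4 and 5 and at 69.6, 88.8, 54.9 and 114 CPM in homozygous pools 1, 2, 3 and 4. Heterozygous pools 2, 3, 4 and 5 had 149, 147, 66.3 and 138 CPM, so that heterozygous pool 4 lay among the homozygous values. The homozygous mean was 47.2% of the wt mean, a difference of -91.5 CPM (two-sided exact permutation test, p = 0.0286, the smallest that 4 against 4 pools allow). Without homozygous pool 3 the difference was -82.6 CPM (exact permutation p = 0.0571). In the edgeR fit over all genes the log2 fold change of Tet1 was -1.08 ± 0.28 (SE), with a 95% interval of -1.67 to -0.49 and an adjusted p of 0.92, so that even the targeted gene did not pass the adjusted threshold. Counts cover the whole gene, and transcript upstream of a trap is counted too, so the remaining level is no measure of remaining protein.

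**Figure D1:**
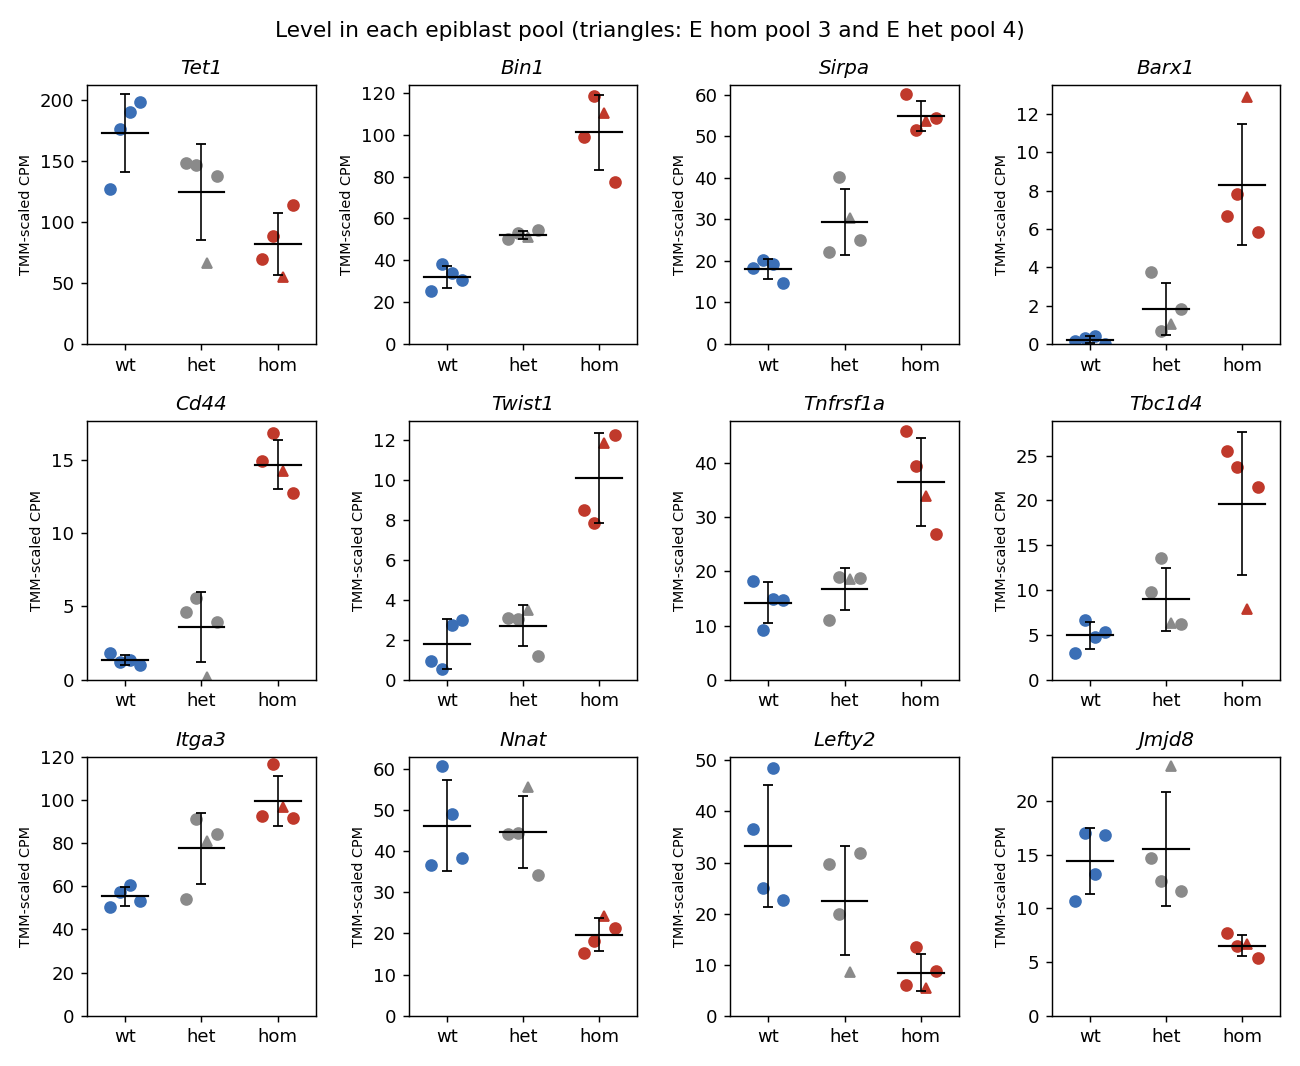
Level of 12 genes in each epiblast pool, in TMM-scaled CPM on a linear axis from 0, for wild-type (wt), heterozygous (het) and homozygous (hom) pools. Each point is a pool, triangles are homozygous pool 3 and heterozygous pool 4, the horizontal line is the mean and the bar 1 SD (n = 4). Bin1 and Sirpa show no overlap between homozygous and wt pools, and Tbc1d4 shows homozygous pool 3 near the wt pools at 7.90 CPM.

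Bin1 and Sirpa were the genes that edgeR called, both higher in homozygous epiblast, at 3.16 and 3.03 times the wt mean. Of 12405 genes tested by edgeR's quasi-likelihood test, these 2 had an adjusted p under 0.05 (0.0161% of the genes tested) and 0 genes were called lower. At an unadjusted p under 0.05 there were 520 genes (4.19%), 294 higher (2.37%) and 226 lower (1.82%). The limma-voom test called 2 genes higher (0.0161%) and 0 lower. DESeq2 called 17 of 14947 (0.114%), of which 14 were higher (0.0937%) and 3 lower (0.0201%), and both edgeR calls were among them.

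Bin1 (chromosome 18, 32377230 to 32435737) encodes amphiphysin 2, a BAR-domain protein that curves membranes in endocytosis and binds MYC. It was at 25.4, 38.4, 33.9 and 30.4 CPM in the 4 wt pools and 98.7, 118, 111 and 77.2 CPM in the 4 homozygous pools. No homozygous pool overlapped with a wt pool, and heterozygous pools lay between the groups, at 50.4, 53.1, 51.1 and 54.4 CPM. The difference was 1.66 ± 0.19 on the log2 scale (edgeR adjusted p = 0.00588), and 1.61 without homozygous pool 3 (edgeR adjusted p = 0.0150), when it was the 1 gene called (0.00787%). Without wt pool 5 the edgeR adjusted p was 0.0577, just above the threshold.

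Sirpa (chromosome 2, 129592835 to 129632228) encodes the inhibitory receptor SIRP alpha, which binds CD47 on neighbouring cells. It was at 18.4, 20.2, 19.2 and 14.6 CPM in wt, and homozygous pools had 60.0, 51.4, 53.7 and 54.4 CPM, which edgeR put at 1.60 ± 0.22 on the log2 scale (adjusted p = 0.0281). The homozygous pools lay close together and all above the wt pools, and homozygous pool 3 was in their midst. Heterozygous pools had 22.1, 40.2, 30.3 and 25 CPM. Sirpa missed the threshold when any 1 wt or homozygous pool was left out (edgeR adjusted p = 0.0597 to 0.212), and when all 23 libraries entered 1 fit (edgeR adjusted p = 0.984), while its log2 fold change stayed between 1.47 and 1.65 in all settings run. CD47, its ligand, was at 13.5, 7.14, 12.6 and 6.86 CPM in wt and 10.5, 5.08, 10.1 and 12 CPM in homozygous pools, with overlapping ranges.

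The other genes that DESeq2 called higher include some that were nearly silent in wt epiblast and some already expressed there. Barx1 (chromosome 13, 48662998 to 48666507), whose CpG-dense promoter is shown above, encodes a homeodomain factor of stomach and jaw mesenchyme. It was at 0.132, 0.330, 0.408 and 0 CPM in wt pools, at or under the level of 3 counts, and at 6.66, 7.83, 12.9 and 5.85 CPM in homozygous pools. With edgeR this was 5.12 ± 0.84 on the log2 scale (adjusted p = 0.103), and the DESeq2 adjusted p was 1.17e-06. The highest value came from homozygous pool 3, and without it the log2 fold change was 4.83. Heterozygous pools had 3.75, 0.698, 1.05 and 1.85 CPM, each above each wt pool.

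Cd44 (chromosome 2, 102811141 to 102901665) encodes a cell-surface receptor for hyaluronan. The wt pools had 1.85, 1.21, 1.36 and 1.04 CPM of it and the homozygous pools 14.9, 16.8, 14.3 and 12.7 CPM, with no overlap. The difference was 3.41 ± 0.65 on the log2 scale (edgeR adjusted p = 0.362, DESeq2 adjusted p = 2.02e-05), and 3.42 without homozygous pool 3. Heterozygous pools had 4.61, 5.59, 0.175 and 3.96 CPM, where pool 4, the other library that favours short transcripts, was the exception below the wt pools.

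Twist1 (chromosome 12, 33957671 to 33959829), a basic helix-loop-helix factor of mesoderm and of epithelial-mesenchymal transition, was at 0.926, 0.550, 2.72 and 2.98 CPM in wt and 8.46, 7.83, 11.8 and 12.2 CPM in homozygous pools. The log2 fold change was 2.49 ± 0.59 (edgeR adjusted p = 0.73, DESeq2 adjusted p = 0.0116). Heterozygous pools, at 3.11, 3.03, 3.5 and 1.19 CPM, were not apart from wt. Rasl10b, a small GTPase of the RAS superfamily, went from 2.12, 1.10, 3.94 and 0.745 CPM in wt pools to 10.3, 11.9, 9.44 and 8.26 CPM in homozygous pools (DESeq2 adjusted p = 0.0444).

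Tnfrsf1a and Itga3 were already expressed in wt epiblast. Tnfrsf1a, the type 1 receptor of tumour necrosis factor, was at 18.3, 9.12, 14.8 and 14.8 CPM in wt and 45.9, 39.4, 33.8 and 26.8 CPM in homozygous pools (log2 fold change 1.36 ± 0.28, edgeR adjusted p = 0.488, DESeq2 adjusted p = 0.00693). Itga3, the integrin alpha 3 chain, which binds laminins, was at 50.4, 57.4, 60.5 and 53.2 CPM and 92.9, 117, 97 and 91.8 CPM (log2 fold change 0.85 ± 0.19, DESeq2 adjusted p = 0.0195). For both genes all homozygous pools lay above all wt pools, and for Itga3 the spread within each group was small beside the difference.

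Others act in the cytoplasm. Map1a, a microtubule-associated protein, was at 4.76, 4.62, 7.89 and 3.13 CPM in wt and 16.9, 18.6, 14.6 and 12.9 CPM in homozygous pools (DESeq2 adjusted p = 0.00432). Tbc1d4, a RAB GTPase-activating protein of vesicle traffic, was at 3.04, 6.70, 4.76 and 5.37 CPM and 25.5, 23.7, 7.90 and 21.5 CPM (DESeq2 adjusted p = 0.00693). Homozygous pool 3 was the low value here, next to the highest wt pool, and without it the log2 fold change went from 1.98 to 2.23.

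Crabp2, which carries retinoic acid to its nuclear receptors, was at 20.5, 24.7, 14.6 and 17.7 CPM in wt and 48.4, 35, 41.6 and 38.2 CPM in homozygous pools (DESeq2 adjusted p = 0.0248). Ppp1r1a, an inhibitor of protein phosphatase 1, had 23.4, 27.3, 35.2 and 26.1 CPM and 60.2, 52.6, 111 and 44.5 CPM, where homozygous pool 3 was far above the rest. Prrt3 and the predicted gene Gm3383 completed the 14 genes that DESeq2 called higher, with log2 fold changes of 1.18 and 1.14. Gm3383 is of a family of near-identical copies, and its counts are uncertain.

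The 3 genes that DESeq2 called lower were Nnat, Lefty2 and Rsbn1. Nnat (chromosome 2, 157560078 to 157562522), the paternally expressed imprinted gene of neuronatin, was at 36.6, 60.7, 49.1 and 38.3 CPM in wt, and homozygous pools had 15.2, 18.1, 24.2 and 21.3 CPM. The change on the log2 scale was -1.23 ± 0.24 (edgeR adjusted p = 0.362, DESeq2 adjusted p = 0.00432), and -1.35 without homozygous pool 3. Heterozygous pools, at 44.1, 44.5, 55.5 and 34.2 CPM, overlapped with wt pools and not with homozygous pools.

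Lefty2 (chromosome 1, 180893108 to 180899103), a secreted inhibitor of NODAL that is itself induced by NODAL, was at 36.5, 25.1, 48.6 and 22.7 CPM in wt and 6.09, 13.4, 5.32 and 8.77 CPM in homozygous pools, -1.97 ± 0.43 on the log2 scale (edgeR adjusted p = 0.488, DESeq2 adjusted p = 0.00693). No homozygous pool reached the wt range. Rsbn1, a nuclear protein, was at 23.1, 24.3, 29.6 and 37.7 CPM and 8.58, 13.4, 7.90 and 12.6 CPM (DESeq2 adjusted p = 0.0497).

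Without homozygous pool 3, DESeq2 called 11 of 15515 genes (0.0709%). These comprised 9 of the 17, namely Bin1, Sirpa, Barx1, Cd44, Map1a, Tnfrsf1a, Tbc1d4, Nnat and Lefty2, and in addition Hrk, a BH3-only apoptosis activator, and Gpc4, a glypican of the cell surface.

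Without both libraries that favour short transcripts, homozygous pool 3 and heterozygous pool 4, more genes were called. The edgeR test then called 4 genes (0.0316%), Bin1, Sirpa, Cd44 and Tbc1d4. DESeq2 called 42 of 12479 (0.337%), 26 higher (0.208%) and 16 lower (0.128%), with 15 of the 17 among them. Tet1 was one of the 16 (-0.94 on the log2 scale, DESeq2 adjusted p = 0.000133). Named after their values were seen, the others included Gldc, the decarboxylase of the glycine cleavage system (521 to 409 CPM, mean of wt to mean of the 3 homozygous pools), and Gcat, which makes glycine from a product of threonine breakdown (128 to 70.5 CPM), both lower. Higher ones included Rasgrp3, an exchange factor for RAS (0.136 to 5.07 CPM), Mtap, an enzyme of methionine salvage (175 to 259.9 CPM), Slc1a3, a glutamate transporter (38.2 to 70.1 CPM), and Nr3c1, the glucocorticoid receptor (3.42 to 12.5 CPM).

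Beyond the called genes, 304 genes had all homozygous pools above all wt pools (2.45% of the genes tested) and 249 had all of them below (2.01%). Such genes are said here to have separate pools, and counts of them in the lists below are to be read against these shares. Without homozygous pool 3 the shares were 4.36% and 3.87%. The most different of these by edgeR p, outside the genes above, included Gdf3, a TGF-beta family ligand that works with NODAL, at 11.9, 9.78, 12.9 and 8.65 CPM in wt and 21.1, 36.3, 32.8 and 21.7 CPM in homozygous pools. Cald1, which encodes the actin-binding protein caldesmon, was at 31.2, 39.7, 40.9 and 35.3 CPM and 60.6, 66.1, 61.1 and 50.4 CPM. Neither passed an adjusted threshold (edgeR adjusted p = 0.826 and 0.92).

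On the lower side stood Jmjd8, a JmjC-domain protein, at 10.7, 17, 13.2 and 16.8 CPM in wt and 7.67, 6.45, 6.70 and 5.33 CPM in homozygous pools, with heterozygous pools at 14.7, 12.6, 23.3 and 11.6 CPM, as high as wt. Ablim1, an actin-binding LIM protein, was at 25.1, 23.1, 18.4 and 10.7 CPM and 4.63, 8.15, 8.07 and 7.74 CPM. Tef, a bZIP factor with a daily rhythm in many tissues, was at 42.7, 48.8, 50.7 and 43.1 CPM and 30.0, 20.3, 17.7 and 21.2 CPM. None of the 3 passed with edgeR (adjusted p = 0.961 each), and Ablim1 was among the 42 DESeq2 calls without homozygous pool 3 and heterozygous pool 4 (DESeq2 adjusted p = 0.0437).

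The remaining genes of this kind had log2 fold changes of -1.74 to -0.72 and an edgeR adjusted p of 0.961. They were Phka2 (a phosphorylase kinase subunit of glycogen breakdown), Plcb3 (a phospholipase C), Rab5b (a GTPase of early endosomes), Flad1 (FAD synthase), Sipa1l2, Kank3, Tmem19 and Pm20d2. Kank3 and Flad1 were among the 42 DESeq2 calls without homozygous pool 3 and heterozygous pool 4 (DESeq2 adjusted p = 0.0109 and 0.0478). Phka2 is X-linked, and its heterozygous pools, at 6.32, 8.15, 6.30 and 5.94 CPM, were as low as the homozygous ones at 9.03, 5.29, 4.29 and 9.63 CPM, against 19.7, 25.2, 16.3 and 11 CPM in wt.

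The enzymes that set and remove DNA methylation, Tet1 apart, overlapped between the genotypes. Tet3 was at 39.4, 18.7, 46.2 and 35.2 CPM in wt and 42, 38.8, 31.9 and 45.9 CPM in homozygous pools, and Tet2 was at 8.60, 0.989, 2.31 and 1.19 CPM and 3.39, 1.27, 7.04 and 5.33 CPM. Dnmt3b, the most abundant de novo methyltransferase here, was at 6238, 7637, 6939 and 7761 CPM in wt and 5672, 6315, 4549 and 6173 CPM in homozygous pools (log2 fold change -0.33, edgeR adjusted p = 0.961).

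Dnmt1, the maintenance methyltransferase, its partner Uhrf1, Dnmt3a and the cofactor Dnmt3l had log2 fold changes of -0.16, -0.01, 0.02 and -0.28, with overlapping pools. Tdg, the glycosylase that removes oxidised methylcytosine, was at 362, 321, 331 and 342 CPM in wt and 279, 239, 147 and 325 CPM in homozygous pools, with pool 3 lowest. Of 17 tested genes of the oxidised methylcytosine pathway, 11 had higher and 6 lower fold changes (9 and 8 without homozygous pool 3), 0 were called, and Tet1 was the 1 with an unadjusted p under 0.05. Tet1 and Parp1, a poly(ADP-ribose) polymerase of DNA repair, were the 2 with separate lower pools (11.8%, against 2.01% of all genes), with and without pool 3. The log2 fold change of Parp1 was -0.22 ± 0.17 (edgeR adjusted p = 0.961). Of 17 tested genes of methylation maintenance and de novo methylation, 5 were higher and 12 lower, 0 of them with separate pools.

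Among 21 Polycomb and co-repressor genes, 5 had higher and 16 lower fold changes (9 and 12 without homozygous pool 3), with a median log2 fold change of -0.15 that moved to -0.04. The median of all tested genes was 0.01. Pcgf2, a subunit of Polycomb repressive complex 1, was the one member with separate pools, at 16, 18.8, 21.2 and 19.2 CPM in wt and 24.5, 34.8, 34.9 and 22.5 CPM in homozygous pools. Ezh2, the catalytic subunit of complex 2, was at 161, 166, 83.3 and 151 CPM in homozygous pools, where pool 3 alone was far below the wt range of 162 to 189 CPM.

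Genes of the primitive streak were lower on balance, but the wt pools disagreed among themselves. Of 17 tested members, 13 had lower and 4 higher fold changes, with a median log2 fold change of -0.54 with or without homozygous pool 3, and 3 members had an unadjusted p under 0.05, against 4.19% of all genes. None was called, and 0 members had separate pools.

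Mixl1, a homeobox gene of the nascent streak, was at 127, 16.4, 94.5 and 4.92 CPM in wt pools 1, 2, 4 and 5, while homozygous pools had 9.82, 3.70, 1.37 and 9.12 CPM. On the log2 scale this was -3.33 ± 0.83 (edgeR adjusted p = 0.826, DESeq2 adjusted p = 0.0923), and wt pool 5 lay within the homozygous range. Mesp1, which marks early mesoderm, was at 24.2, 0, 34.8 and 0.596 CPM in wt and 0.451, 0, 0 and 0 CPM in homozygous pools, so that 2 of the 4 wt pools were as low as the homozygous ones. The same 2 wt pools, 1 and 4, were also highest for T (Brachyury), at 21, 5.50, 31.6 and 5.66 CPM against 11.1, 2.12, 7.04 and 7.40 CPM, and for the WNT target Sp5, at 14.8, 3.30, 15.4 and 1.94 CPM against 4.18, 0.741, 2.23 and 2.24 CPM.

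Wild-type pools 1 and 4 were also the wt pools with the most RNA of extra-embryonic and visceral endoderm genes. The mean log2 CPM of 17 trophoblast stem cell and ExE genes was 4.65 and 4.03 in wt pools 1 and 4, 1.11 and 1.79 in wt pools 2 and 5, and 4.00, 1.59, 4.35 and 2.22 in homozygous pools 1 to 4. That of 23 visceral endoderm genes was 5.51, 1.92, 3.12 and 1.63 in wt pools 1, 2, 4 and 5 and 4.24, 4.44, 1.49 and 2.01 in homozygous pools. Of the 17 ExE genes, 8 had higher and 9 lower fold changes in homozygous pools (1 and 16 without homozygous pool 3). Their median log2 fold change was -0.02, and -0.66 without that pool. The part of extra-embryonic and visceral endoderm tissue in the streak values was not tested. Cdx2, a defining trophoblast factor, reached 14.7, 0.330, 19 and 0.596 CPM in wt and 13.4, 2.43, 29.4 and 4.47 CPM in homozygous pools, and Ttr, of visceral endoderm, 30.3, 0, 4.49 and 0 CPM and 7.45, 11.4, 0.172 and 1.72 CPM. In pooled tissue, fewer cells of a type and less RNA per cell cannot be told apart.

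**Figure D2:**
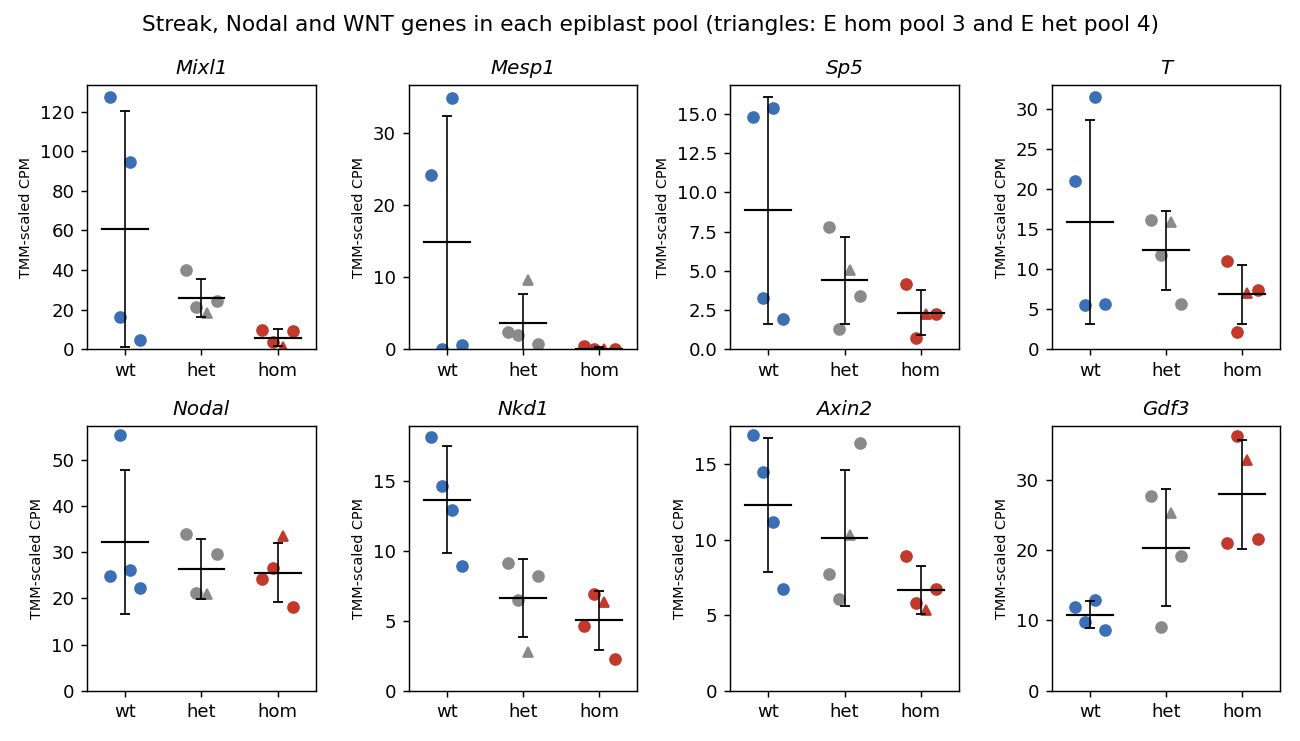
Level of 8 genes of the primitive streak and of NODAL and WNT signalling in each epiblast pool, in TMM-scaled CPM from 0, with the mean and 1 SD (n = 4). Points are pools 1, 2, 4 and 5 (wt), 2, 3, 4 and 5 (het) and 1 to 4 (hom), from left to right in each group. For Mixl1, Mesp1, Sp5 and T the high wt points are pools 1 and 4, while Gdf3 has no overlap between wt and homozygous pools.

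NODAL signalling genes did not shift together: of 24 tested members of the NODAL and TGF-beta list, 13 had higher and 11 lower fold changes (median log2 fold change 0.05). Within it, Lefty2 was the member with separate pools on the lower side and Gdf3 on the higher side. Nodal itself was at 24.9, 55.4, 26.2 and 22.4 CPM in wt and 24.2, 26.6, 33.5 and 18.1 CPM in homozygous pools, and Smad3, a transducer of the pathway, at 31.3, 31.5, 35 and 23.9 CPM and 23.9, 15.1, 14.1 and 18.2 CPM, with homozygous pool 1 level with the lowest wt pool.

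Among genes of WNT signalling, Nkd1, a WNT target and inhibitor, was at 18.1, 14.6, 12.9 and 8.94 CPM in wt and 4.63, 6.88, 6.35 and 2.24 CPM in homozygous pools, with no overlap (log2 fold change -1.44 ± 0.45, edgeR adjusted p = 0.961). Axin2, likewise induced by WNT and inhibitory, was at 16.9, 14.5, 11.2 and 6.71 CPM and 8.92, 5.82, 5.32 and 6.71 CPM. Dkk1 and Sfrp5, secreted WNT inhibitors, had log2 fold changes of 1.37 and 0.91 (edgeR adjusted p = 0.961 each). Each had 0 counts in 2 homozygous pools and in 0 wt pools, so neither rise was shared by all homozygous pools. Both genes are also on the anterior visceral endoderm list, whose mean log2 CPM ran from 1.01 to 4.21 in homozygous pools. The part of that tissue in their values was not tested. Nkd1 was the 1 member of 27 tested WNT genes with separate pools on the lower side (against 2.01% of all genes), and 11 members had higher and 16 lower fold changes.

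In the FGF and ERK list of 26 genes the fold changes were 13 higher and 13 lower, and 10 higher and 16 lower without homozygous pool 3. Dusp4 and Il17rd, which restrain ERK and FGF signalling, had log2 fold changes of -0.74 and -0.64, while Spry2, which acts likewise, had 0.35 (edgeR adjusted p = 0.961 for each of the 3). The receptor Fgfr1 was at 111, 123, 128 and 85.1 CPM in wt and 133, 149, 153 and 134 CPM in homozygous pools. Fgfr1 was the one member with separate pools (against 2.45% of all genes). Its edgeR adjusted p was 0.961.

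Pluripotency genes remained expressed. Of 19 tested primed and formative genes, 11 had higher and 8 lower fold changes, and Sox2 and Dppa4 had separate higher pools (10.5%, against 2.45% of all genes). Sox2 was at 60.6, 63.2, 83.1 and 79.2 CPM in wt and 99.6, 99.6, 83.3 and 96.3 CPM in homozygous pools, so the lowest homozygous value, from pool 3, was level with the highest wt value. Pou5f1 (Oct4) was at 678, 835, 810.4 and 635 CPM and 826, 940.0, 1166 and 807 CPM, and these levels, in wt and homozygous pools alike, are those of a tissue labelled epiblast.

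Nanog was at 75.7, 98.4, 89.8 and 75 CPM in wt and 58.7, 25.4, 46 and 76.2 CPM in homozygous pools, with homozygous pool 4 inside the wt range. Dppa4 was at 28.3, 14.1, 33.7 and 23 CPM and 39.8, 59.7, 64.7 and 37 CPM. Neither passed the adjusted threshold (edgeR adjusted p = 0.961 for both). All 8 tested ectoderm and neural regulators had fold changes above 0, with a median log2 fold change of 0.61 (0.44 without homozygous pool 3), and 6 were above 0 without that pool. Six3 was the 1 with separate pools, at 0.794, 0, 2.04 and 1.04 CPM in wt and 3.16, 3.49, 2.75 and 3.44 CPM in homozygous pools. The other 11 of the 19 genes of that list were too low to be tested. Their mean CPM was higher in homozygous pools for Sox1, Pax6, Hesx1, Dlx5, Tfap2a and Pax3. It was lower for Zic1, Cdx1, Fabp7 and Meis1, and 0 in both groups for Olig3. A gene could pass the count filter through the homozygous pools alone, so the split of the 8 tested genes is no measure of the direction of the list.

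The mesenchyme list was one of 2 lists, among 35, whose mean level did not overlap between wt and homozygous pools. Among single genes, 2.45% had separate pools on the higher side and 2.01% on the lower side. Whether 2 of 35 lists is more than these shares was not tested. The mean log2 CPM of its 15 tested members was 3.30 to 3.83 in wt pools, 3.31 to 4.09 in heterozygous pools and 4.04 to 4.42 in homozygous pools. Barx1, Cd44 and Twist1 are its 3 members with separate pools, and the other 12 gave overlapping levels of 4.13 to 4.64 in wt and 4.12 to 4.71 in homozygous pools, so that no separation was left without these 3. Of the 15 tested members of the mesenchyme list, 11 had higher and 4 lower fold changes (8 and 7 without homozygous pool 3). This list, like those of CD47 and SIRP, BAR-domain and integrin genes, was drawn up with the called genes known and is no independent evidence.

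Vim, the intermediate filament of mesenchyme, was at 31.3, 36.5, 34.7 and 34.4 CPM in wt and 53, 70.9, 53.2 and 33 CPM in homozygous pools, where pool 4 was within the wt range. Fn1, which encodes fibronectin and is also used as a mesenchyme marker, was at 80.0, 84.1, 136 and 82.4 CPM and 58.1, 54.6, 61.6 and 90.1 CPM, lower in 3 of the 4 homozygous pools. Epithelial genes of the same list had overlapping pools: Epcam had a log2 fold change of 0.03 and Cdh1 (E-cadherin) of -0.23.

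Hyaluronan is the ligand of CD44, and Has2, which makes it, was at 11.8, 17.9, 13.9 and 10.7 CPM in wt and 30.7, 33.8, 8.07 and 20.5 CPM in homozygous pools. Homozygous pool 3 was below all wt pools and the other 3 above them, so that the log2 fold change of 0.78 became 1.05 without it. Among 13 tested genes of CD47, SIRP and hyaluronan, 5 had higher and 8 lower fold changes (3 and 10 without homozygous pool 3). Sirpa and Cd44 had separate higher pools (15.4%, against 2.45% of all genes) and 1 member had separate lower pools (7.69%, against 2.01%). Among 27 BAR-domain and endocytosis genes, 11 were higher and 16 lower, and Bin1 was the 1 with separate pools (3.7%, against 2.45% of all genes). Without homozygous pool 3 the split turned to 17 higher and 10 lower, and Snx18 and Snx33 had separate higher pools too (3 members, against 4.36% of all genes). Among 24 integrin, laminin and basement membrane genes, 14 were higher and 10 lower. Itga3 was the 1 with separate higher pools (4.17%, against 2.45% of all genes), and 1 member had separate lower pools (4.17%, against 2.01%).

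Imprinted genes were lower in 22 and higher in 14 of 36 tested, with a median log2 fold change of -0.13. Nnat and Sgce were the 2 with separate pools, both lower (5.56%, against 2.01% of all genes). Sgce, the paternally expressed sarcoglycan epsilon, was at 3.57, 2.64, 2.18 and 6.26 CPM in wt and 0, 1.27, 0.343 and 0 CPM in homozygous pools, close to the level of 3 counts. Impact was at 55.8, 45.5, 32.1 and 56.3 CPM and 24.6, 9.73, 9.10 and 42.8 CPM, with homozygous pool 4 in the wt range. No imprinted gene passed edgeR's adjusted threshold.

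Germline genes, many of which are silenced by promoter methylation in the epiblast, showed no rise: 8 of 20 tested were higher and 12 lower. Mov10l1, a helicase of piRNA synthesis, was at 3.31, 5.83, 5.17 and 6.71 CPM in wt and 1.24, 2.86, 0.687 and 3.10 CPM in homozygous pools, and with Hormad1 was 1 of 2 members with separate pools, both lower (against 2.01% of all genes). Of 38 Hox genes in the table, 0 reached the count filter.

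Genes of cholesterol synthesis were lower in 22 of 25 tested, with a median log2 fold change of -0.23 (-0.22 without homozygous pool 3). The changes were small: Acat2, the 1 member with separate pools, was at 242, 243, 228 and 225 CPM in wt and 199.9, 205, 190.4 and 204 CPM in homozygous pools, and Lss, lanosterol synthase, at 57.9, 80.8, 45.4 and 35.5 CPM and 42.2, 36.1, 21.1 and 30.1 CPM with overlap. Over the 25 genes the mean log2 CPM was 5.46 to 5.76 in wt and 5.14 to 5.53 in homozygous pools. Neither gene passed the adjusted threshold (edgeR adjusted p = 0.961).

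Genes of the p53 pathway and apoptosis were the other list whose level did not overlap. The mean log2 CPM of 20 members was 5.22 to 5.29 in wt pools, 5.14 to 5.37 in heterozygous pools and 5.37 to 5.58 in homozygous pools, a small gap. Of the 20, 14 had higher and 6 lower fold changes.

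Cdkn1a, which encodes the cyclin-dependent kinase inhibitor p21, was at 6.61, 6.26, 3.40 and 6.41 CPM in wt and 6.66, 17.6, 12.5 and 9.46 CPM in homozygous pools. Phlda3, a p53 target that inhibits AKT, was at 16.9, 12.4, 15.2 and 16.7 CPM and 18.2, 43.3, 43.6 and 18.1 CPM, with homozygous pools 2 and 3 much higher than 1 and 4. Mdm2, the p53 target that limits p53, went the other way, at 75.9, 78.6, 74.5 and 89.3 CPM and 69.7, 61.3, 19.7 and 69.7 CPM, with pool 3 lowest. None of these 3 passed the threshold (edgeR adjusted p = 0.961), and the level of the 16 members with overlapping pools was 5.28 to 5.43 in wt and 5.44 to 5.54 in homozygous pools.

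**Figure D3:**
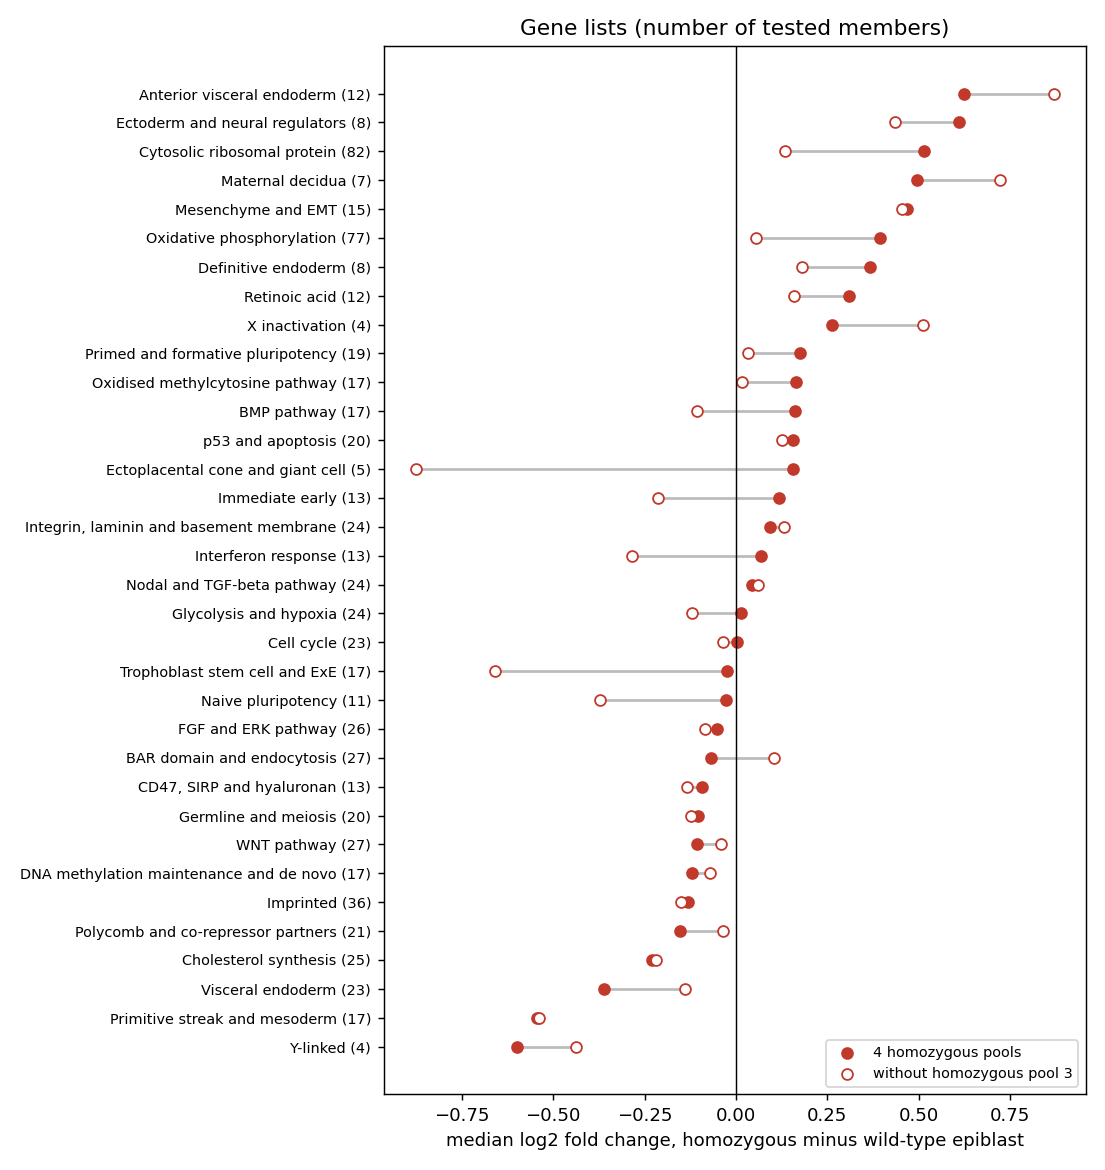
Median log2 fold change of each gene list with at least 4 tested members, homozygous minus wild-type epiblast, with all 4 homozygous pools (filled points) and without homozygous pool 3 (open points). The number of tested members stands beside each name. Ribosomal protein genes move from 0.51 to 0.13 and oxidative phosphorylation genes from 0.39 to 0.06 when that pool is left out, while the primitive streak list stays at -0.54.

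The lists of ribosomal and mitochondrial genes moved with homozygous pool 3. All 82 tested cytosolic ribosomal protein genes had fold changes above 0, with a median log2 fold change of 0.51 that became 0.13 without homozygous pool 3. Without that pool 81 of the 82 were still above 0, so the size of the change moved more than its direction. Their mean log2 CPM in homozygous pools was 8.16 to 8.17 apart from pool 3, with 9.28. Wild-type pools had 7.82 to 8.22, and heterozygous pool 4 had 9.26. Of the 82 genes, 18 had separate pools on the higher side (22.0%), against 2.45% of all genes with pool 3. Without pool 3 the number was again 18, against 4.36% of all genes. Of 77 oxidative phosphorylation genes, 70 were higher, with a median of 0.39 that became 0.06, and 48 were higher without pool 3.

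Rpl41, one of the shortest ribosomal protein genes, was at 819, 1089, 1029 and 1080 CPM in wt and 1248, 1173, 5819 and 1305 CPM in homozygous pools. Its pools did not overlap with or without pool 3, and the log2 fold change went from 1.25 to 0.30. Copies of ribosomal protein genes elsewhere in the genome make such counts uncertain.

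The same tilt ran through the genes with separate pools. Median transcript length was 1108.5 bases for the 304 higher and 1642 bases for the 249 lower genes, against 1420 for all tested genes. Without homozygous pool 3 the lengths were 1275 and 1385.5 bases, and 541 genes were higher and 480 lower in each of the 3 remaining pools, a looser demand. Median GC content of the higher and lower genes was 52.2% and 50.0% with pool 3, and 49.5% and 53.5% without it.

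**Figure D4:**
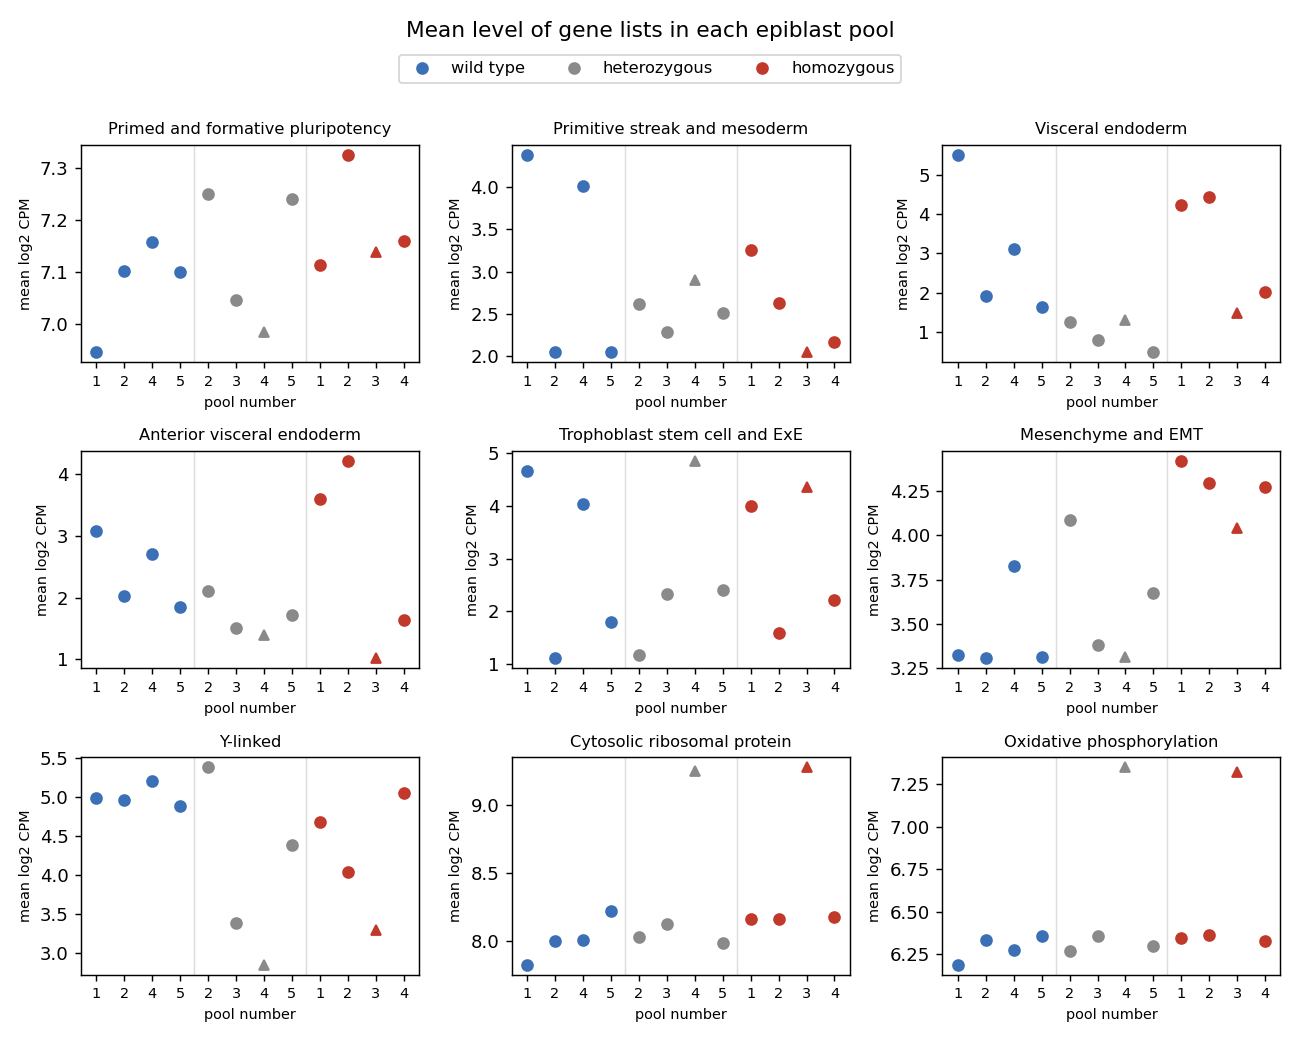
Mean log2 CPM (prior count 2) of the tested members of 9 gene lists in each epiblast pool, with colours for genotype and triangles for homozygous pool 3 and heterozygous pool 4. Ribosomal protein and oxidative phosphorylation lists are highest in those 2 pools. The mesenchyme list is at 4.04 to 4.42 in homozygous and at most 3.83 in wt pools, and the ExE list varies within every genotype. The visceral endoderm list is at 0.49 to 1.31 in heterozygous pools, below all wt (1.63 to 5.51) and homozygous pools (1.49 to 4.44).

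The share of male embryos was not known for any pool. The 7 Y-linked genes of the list, 4 of them tested, summed to 132 to 151 CPM in wt pools and to 46.5 to 137 CPM in homozygous pools. Homozygous pools 2 and 3 were the low ones, at 76.3 and 46.5 CPM. The part of the sex ratio in the differences was not tested. Anterior visceral endoderm genes, a neighbouring cell type, had a mean log2 CPM of 3.59, 4.21, 1.01 and 1.64 in homozygous pools 1 to 4 and 1.85 to 3.08 in wt pools. Their defining gene Cer1 was at 10.0, 23.9, 0 and 0 CPM in homozygous pools 1 to 4 and at most 2.04 CPM in wt.

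Genes near Tet1 were examined because a trap allele is inherited with its surroundings. Within 10 Mb on either side, 80 genes were tested, of which 37 were higher and 43 lower, 0 were called and 5 had an unadjusted p under 0.05, against 4.19% of all genes. The pools were separate for 2 genes on the higher and 1 on the lower side, against 2.45% and 2.01% of all genes. The smallest p belonged to Hsf2, a heat shock factor, at -0.90 on the log2 scale (edgeR adjusted p = 0.961).

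The homozygous against wt difference was also compared with that of ExE, where 4 wt and 3 homozygous pools share no library with the epiblast but in part share litters. By the design text, epiblast and ExE pools of the same genotype and number are tied, and the main fit did not use this tie. In a fit of all 23 libraries, edgeR called 0 of 13595 genes (0%) for a difference between the tissues (416 at an unadjusted p under 0.05, 3.06%), limma-voom called 0 (0%) and DESeq2 called 3 (0.0166%), namely Itga3, Aph1b and F5. Itga3 was lower in homozygous ExE, at 59.6, 75.1 and 44.3 CPM, than in wt ExE, at 84.2, 82.4, 83.8 and 81.9 CPM, the opposite of the epiblast (difference in log2 fold change 1.30 ± 0.27, edgeR adjusted p = 0.63). Emilin3, Pcnx, Bzrap1 and Apba2 had the next differences among genes whose mean log2 CPM reached 1 in either tissue, of 7.39, 1.38, 7.59 and 4.88 (edgeR adjusted p of 0.9999 for each). In ExE the mean log2 CPM was only -1.07 for Emilin3, -0.44 for Bzrap1 and -0.63 for Apba2, against 4.58 for Pcnx. The sizes of the 3 large differences thus rest on few ExE counts and are uncertain.

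Bin1 in ExE was at 26, 28.4, 37.1 and 20.6 CPM in wt and 31.4, 66.7 and 44.8 CPM in homozygous pools 1, 3 and 4, so that its log2 fold change was 0.76 ± 0.30 there (edgeR adjusted p = 0.577). Sirpa in ExE was at 15.1, 0.896, 8.12 and 1.07 CPM and 1.36, 9.04 and 9.47 CPM, overlapping. Cd44 was at 0, 0, 0 and 3.08 CPM and 1.63, 1.51 and 3.79 CPM. None of these differences between the tissues passed the test (edgeR adjusted p = 0.9999 for Bin1 and for Cd44).

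Of the 304 genes with separate higher pools in the epiblast, 277 were tested in ExE, and 76.9% of them had a fold change above 0 there, against 47.2% of all genes. Without ExE homozygous pool 3, a library with the same bias, the share was 59.6% against 47.1%. Of 240 of the lower genes, 25% were above 0 in ExE, and 37.0% without that pool. For the sets found without epiblast pool 3, the shares without ExE pool 3 were 60.9% and 30.0%. Pools of the same genotype and number are tied across the tissues, so the ExE shares are no independent repeat.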

How the data were processed

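Pools of mouse epiblast at E6.25 were profiled by RNA-seq. Per the labels' protocols, 1 to 10 ng of RNA per pool (RNA integrity number above 8.0) was amplified by the SMARTer method and read as single 75-bp reads. Per the submitters' processing notes and design text, reads were trimmed with cutadapt 1.7.1 and FastX 0.0.13, filtered with ShortRead 1.16.3 and processed with TopHat2 2.0.12 on mm10 (GRCm38). The counting program, annotation and strand setting were not given in the sources used here, so a gene cannot be told apart from an overlapping or antisense one. The authors deposited raw counts per gene, whole numbers without normalization, for all 23 libraries. Of 23723 distinct symbols, 23369 (98.5%) were matched to GENCODE M21, 828 through an older symbol, and 27 lines hold dates in place of symbols. Promoter sequences are RefSeq's (GRCm38.p6).

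Counts were analysed in R 4.3.3 with edgeR 4.0.16. After filterByExpr (at least 10 counts, total at least 15), libraries were scaled by TMM and genes tested two-sided by glmQLFit and glmQLFTest, with the 12 epiblast libraries of 3 genotypes in 1 fit that shares an estimate of the spread. P-values were adjusted over the whole table of tested genes by the Benjamini-Hochberg method and called under 0.05. Log2 fold changes (prior count 0.125) are homozygous minus wt ± SE. Mean list levels use a prior count of 2. For the difference between tissues all 23 libraries were fitted together. DESeq2 1.42.0, limma-voom (limma 3.58.1), other scalings and filters, a GC and length offset, a replicate block and leaving out pools were alternatives. The edgeR step was tested on simulated counts. Pools counted as replicates, since all 12 pairs within the wt and homozygous groups differed beyond counting noise (chi-square at least 12.3 times its degrees of freedom, for genes of 20 or more counts). P-values measure the spread between pools, and limits from counts cover counting error only.

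The members and lists were chosen with earlier results of these data known. Genes named are Tet1 to Tet3, the DNA methyltransferase genes, Uhrf1 and Jmjd8 whatever their p, every gene called by edgeR, DESeq2 or limma-voom, the 15 rises and 15 falls of smallest p with separate pools and a mean log2 CPM of at least 1, up to 4 members of each of 36 lists with their commonest markers, and up to 5 genes for the difference between tissues. Parp1, Dkk1, Sfrp5, Spry2, Snx18 and Snx33 were named after their values were seen.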

Additional observations from a re-analysis of the deposited data

Results flagged for a closer look

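Among 236 groups of 4 pools examined (named genes and list levels in wt or homozygous epiblast), 17 held 1 pool whose distance from the other 3 passed Dixon's 95% value, which chance gives to about 1 in 20 groups.

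Homozygous pool 3 was the distant pool in 8 of the 17. It was high for Rpl35a (511 CPM, against 186 to 195 in the other homozygous pools), Rpl41 (5819 CPM, against 1173 to 1305), Atp5e (262 CPM, against 69.7 to 75.8), Uqcrh (228 CPM, against 96.6 to 115) and Ifitm3 (23.2 CPM, against 12.5 to 13.7). Its mean log2 CPM was 9.28 for ribosomal protein genes (8.16 to 8.17 in the others), 7.32 for oxidative phosphorylation genes (6.32 to 6.36) and 6.48 for Polycomb and co-repressor genes (6.94 to 6.99).

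Among the other homozygous pools, pool 1 was low for Ablim1 (4.63 CPM, against 7.74 to 8.15) and was the 1 with Mesp1 counts (0.451 CPM, against 0). Pool 2 was high for the p53 and apoptosis list (mean log2 CPM 5.58, against 5.37 to 5.40), and pool 4 for Il17rd (45.9 CPM, against 25.1 to 26.8).

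Among wt pools, pool 4 was high for Tmem19 (21.8 CPM, against 16.8 to 17.6), Fn1 (136 CPM, against 80.0 to 84.1) and the mesenchyme list (mean log2 CPM 3.83, against 3.30 to 3.33), and low for Cdkn1a (3.40 CPM, against 6.26 to 6.61). Pool 2 was high for Nodal (55.4 CPM, against 22.4 to 26.2).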

How the results depend on the processing

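The count of called genes depended on the tool and on single pools. Against 2 genes with edgeR, the count was 2 with limma-voom, DESeq2 size factors, no filter or a GC and length offset, 3 with the 8 wt and homozygous libraries alone, 1 with all 23 libraries in 1 fit, 4 without homozygous pool 3 and heterozygous pool 4, 17 with DESeq2, 11 with DESeq2 without homozygous pool 3 and 42 with DESeq2 without both pools, and 0 when tested against a fold of 1.5. Leaving out 1 pool at a time gave 0 to 1 (0 without wt pool 5, 1 without homozygous pool 3). With the pool number as a replicate block it was 0, and 0 with the GC and length offset too. The numbers are not stated to pair epiblast pools across genotypes, and same-numbered wt and homozygous pools 1, 2 and 4 correlated at 0.15, 0.014 and -0.10. For number 1 each pool was the other's best match, and for numbers 2 and 4 neither was. The settings with pools left out for DESeq2 and the fold of 1.5 were chosen after seeing the data.

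The difference between tissues gave 0 genes with edgeR under every setting run and 3 with DESeq2. Genes with separate pools numbered 541 higher and 480 lower without homozygous pool 3. The Tet1 difference ranged from -106.8 to -82.6 CPM when 1 pool was left out (p = 0.0286 to 0.0571, exact permutation).

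Of 1740 values of 83 genes over the settings, 1671 kept their direction and their side of the threshold, 16 (Bin1 and Sirpa) were no longer past it and 42 newly were. In 11 the sign turned, each time near 0. With single pools left out, Tet3 ranged from -0.026 (without wt pool 2) to 0.35, Dnmt3a from -0.043 (wt pool 1) to 0.095, Uhrf1 from -0.10 to 0.030 (homozygous pool 1) and Nodal from -0.50 to 0.057 (wt pool 2), and with the GC and length offset Dnmt3a was at -0.041 and Uhrf1 at 0.0056. The cause was not tested. Pools of a group differed by far more than counting noise, so depth is not the only limit on what could be called. The median log2 fold change of all genes was 0.0078 in the main fit, 0.0158 with DESeq2 size factors and -0.00498 with the GC and length offset.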

Other observations

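Several groups of genes outside the report's account were split nearly evenly between the genotypes with all pools and leaned lower without homozygous pool 3. Among 24 tested glycolysis and hypoxia genes 12 were higher and 12 lower in homozygous epiblast (4 and 20 without that pool, 3 of them with separate lower pools, against 3.87% of all genes), among 23 cell cycle genes 12 and 11 (9 and 14), among 13 immediate early genes 7 and 6 (4 and 9), among 13 interferon-response genes 7 and 6 (5 and 8), among 11 naive pluripotency genes 5 and 6 (4 and 7) and among 17 BMP pathway genes 10 and 7 (6 and 11), with 0 called in each by edgeR. In these lists, with all pools, genes with separate pools were Myc, at 130, 128, 122 and 138 CPM in wt and 117, 111, 107 and 116 CPM in homozygous pools, Rbl1, a retinoblastoma-family cell cycle repressor, at 25.4, 19.5, 19.99 and 25.5 CPM and 17.3, 11.3, 6.01 and 9.29 CPM, and Ifitm3, an interferon-induced membrane protein. Retinoic acid genes were higher in 9 of 12 (8 without that pool), with Crabp2 the member with separate pools, and definitive endoderm genes in 6 of 8 (5).

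Bmp2, a BMP ligand, was at 13.2, 13.9, 1.55 and 0.344 CPM in homozygous pools 1 to 4, and at most 2.25 CPM in wt pools. The 2 high pools were also the 2 with the most anterior visceral endoderm signal (mean log2 CPM 3.59 and 4.21). Its edgeR adjusted p was 0.961, and the part of that tissue in the values was not tested.

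Lists of adjoining tissue and of sex-linked genes had few tested members. Of 7 maternal decidua genes 5 were higher, of 5 ectoplacental cone and giant cell genes 4 (1 without homozygous pool 3, where the median log2 fold change moved from 0.16 to -0.88), of 2 blood genes 2 and of 4 X inactivation genes 3. All 4 Y-linked genes were lower, and 3 of the 4 without that pool. None of these genes was called by edgeR.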
